A study of Apis mellifera with 15 samples.

Results

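Pooled brains of forager honey bees (Apis mellifera) differed widely in their level of a transcript known from a neighbouring gland, and the 15 libraries were ordered here by that level. The measure was Mrjp1, the gene of major royal jelly protein 1, as a share of all counts in a library. The 5 libraries with the highest share are called gland-rich, the 5 with the lowest share gland-poor and the other 5 the middle libraries. Because the libraries were chosen by a measured value, the difference between gland-rich and gland-poor libraries is described without a test. Mrjp1 itself is left out of every result.

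The hypopharyngeal gland is a paired gland in the head of the worker, lying in front of the brain. In nurse bees it secretes the major royal jelly proteins that feed larvae and the queen. In foragers it shrinks and turns to enzymes that break down sugars, such as the alpha-glucosidase that splits the sucrose of nectar. Its lobes must be removed when a brain is dissected. Mrjp1 has also been reported in Kenyon cells of the mushroom body, the brain's centre of learning, so that a high share does not by itself name the source. In pooled tissue, fewer gland cells and less RNA per gland cell cannot be told apart.

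All bees were adult workers caught as foragers at an unpolluted site and held in the laboratory for 72 h. The solvent control group (5 libraries) took sucrose solution with solvent, and the other groups took thiacloprid, a neonicotinoid insecticide, at 25 ng per bee (5 libraries) or 250 ng per bee (5 libraries). Every library came from a separate pool of 5 brains, sequenced after poly-A selection. Total counts were 9553956 to 29208991 in the gland-rich, 6834898 to 10067138 in the middle and 9226059 to 11500655 in the gland-poor libraries. Replicate 1 at 250 ng/bee stood apart. It held the 29208991 counts, was the only library whose label starts with 20191023 instead of 20190809, and lay at -39.5 and -28.3 on the first and second principal components.

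Mrjp1 made up 12.997% of the counts in replicate 1 at 250 ng/bee, 12.5% and 9.82% in control replicates 3 and 2, and 9.40% and 6.79% in replicates 1 and 4 at 25 ng/bee. These were the gland-rich libraries. The gland-poor libraries were control replicates 5, 4 and 1 with 4.71%, 4.58% and 2.20%, and replicates 2 and 4 at 250 ng/bee with 4.41% and 2.80%. The last library inside the gland-rich set held 6.79% and the first outside 6.21%, and the corresponding values at the lower end were 4.71% and 5.41%. Wilson 95% intervals of these shares reached at most 0.0199 percentage points to either side, which covers counting error only. The gland-rich set held 2 control libraries, 2 at 25 ng/bee and 1 at 250 ng/bee, while the gland-poor set held 3, 0 and 2. The dose group was therefore a term in every fit of the difference, and no gland-poor library came from 25 ng/bee.

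**Figure D1:**
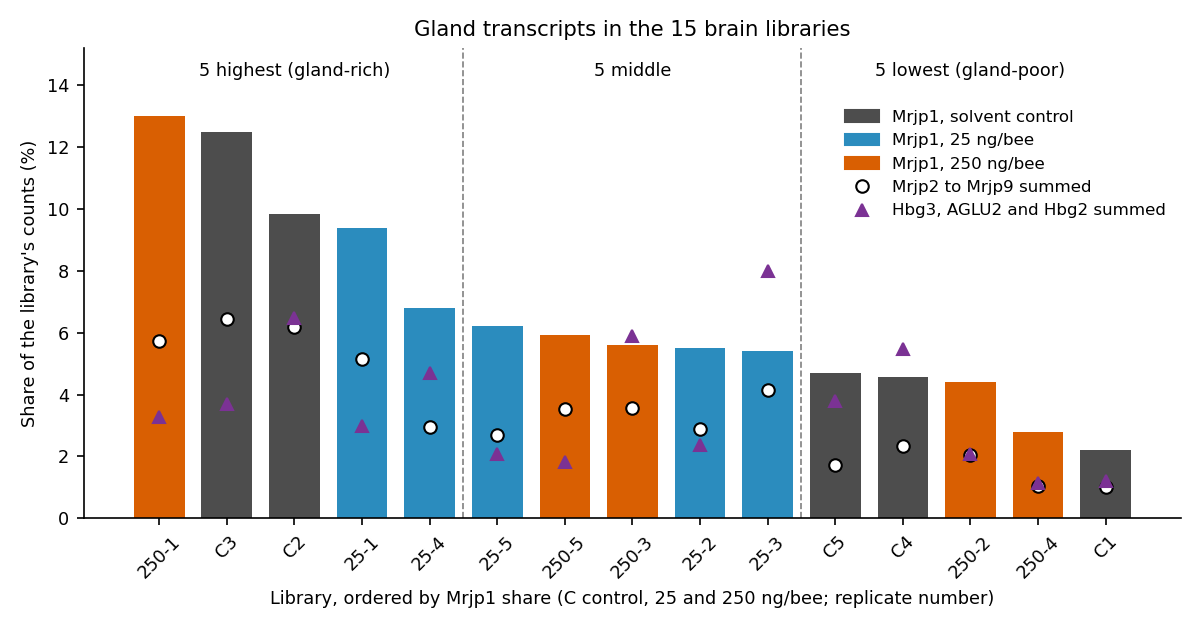
Share of each library's counts (%, vertical axis) taken by Mrjp1 (bars, coloured by dose group), by Mrjp2 to Mrjp9 summed (circles) and by the alpha-glucosidase genes Hbg3, AGLU2 and Hbg2 summed (triangles), for the 15 libraries in order of the Mrjp1 share (horizontal axis), 1 value per library. Mrjp1 falls from 12.997% to 2.20% by construction; the triangles do not keep that order.

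The other gland genes (Mrjp2 to Mrjp9, Hbg3, AGLU2 and Hbg2) took 7.66% to 12.6% of the counts in the gland-rich, 4.74% to 12.2% in the middle and 2.16% to 7.80% in the gland-poor libraries. The sets thus overlap slightly in the sum. The library with the lowest Mrjp1 share among the middle 5, replicate 3 at 25 ng/bee, held the 12.2%. Scaling matters here, because a transcript that takes up to 12.997% of a library pushes down the share of everything else. TMM scaling, which sets the bulk of genes equal between libraries, gave factors of 0.773 to 0.981 in the gland-rich and 1.03 to 1.27 in the gland-poor libraries. Levels below are CPM scaled by TMM unless stated otherwise, and differences are gland-rich minus gland-poor on the log2 scale, with dose group in the fit and the standard error (SE).

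A gene was counted as higher when every gland-rich library lay above every gland-poor library, and as lower in the opposite case. Of 9559 genes other than Mrjp1, 54 were higher (0.565%) and 29 were lower (0.303%), and the sets overlapped for the rest. For a gene unrelated to the order, 5 libraries separate fully from 5 in a share of 0.00794 of splits, both directions together. The called shares are of that size, so the counts are not read as a number of genes that follow Mrjp1. The higher genes differed by a median of 0.46 and 15 of them by over 1, while the lower genes had a median of -0.44 and 1 of them lay beyond 1. The median over all genes was 0.00. Without scaling, on column sums alone, 12 genes were higher and 1118 were lower, and the median gene was at -0.45. All 12 of these were among the 54. Of the higher genes, 52 code for proteins, 2 are long noncoding RNAs and 49 carry only a locus identifier. Their main transcripts had a median length of 1906 nt, beside 2962 nt for the lower genes and 2115 nt for all tested genes.

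Among the gene lists, royal jelly protein genes had the largest median difference, although single genes outside the list lay further apart. Of the 8 tested members beside Mrjp1, 5 were higher (Mrjp2, Mrjp4, Mrjp5, Mrjp6 and Mrjp7) and 3 overlapped, beside 0.565% of all genes higher. Their median difference was 1.83, and 1.40 on column sums, where Mrjp8 turned to -0.18. These counts describe the list and carry no test, since Mrjp1 is a member of the same family and set the order of the libraries.

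Mrjp7 had the largest difference of the family, 3.22 ± 0.47 (SE). It read 4097 CPM in replicate 1 at 250 ng/bee, 4604 and 6805 CPM in control replicates 3 and 2, and 6521 and 1118 CPM in replicates 1 and 4 at 25 ng/bee. In the gland-poor libraries it read 431, 811 and 555 CPM in control replicates 5, 4 and 1, and 608 and 354 CPM in replicates 2 and 4 at 250 ng/bee. Replicate 4 at 25 ng/bee was far below the other gland-rich libraries and nearest to the gland-poor ones.

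Mrjp2, one of the abundant proteins of royal jelly, followed with 2.64 ± 0.44 (SE). Its gland-rich values were 28929 CPM in replicate 1 at 250 ng/bee, 27663 and 20196 CPM in control replicates 3 and 2, and 15051 and 8444 CPM in replicates 1 and 4 at 25 ng/bee. Gland-poor values were 2253, 5395 and 1667 CPM in control replicates 5, 4 and 1, and 7177 and 1918 CPM in replicates 2 and 4 at 250 ng/bee. The sets came close to each other, at 8444 and 7177 CPM, and the middle libraries, from 5266 to 11759 CPM, spanned the gap.

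Mrjp5 differed by 2.39 ± 0.47 (SE), with 7120 to 17476 CPM in the gland-rich and 863 to 5116 CPM in the gland-poor libraries. Mrjp6 differed by 2.23 ± 0.43 (SE), with 8777 to 23533 CPM against 1814 to 7528 CPM. In both, the middle libraries reached into the gland-rich range: replicate 3 at 25 ng/bee held 15431 CPM of Mrjp5 and 16072 CPM of Mrjp6.

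Mrjp4 behaved more mildly, at 1.08 ± 0.27 (SE), with 1975 to 5753 CPM in the gland-rich and 1285 to 1840 CPM in the gland-poor libraries. Replicate 1 at 250 ng/bee held the 5753 CPM, and without that library the difference was 0.68. Mrjp3, another abundant royal jelly protein, overlapped because replicate 4 at 25 ng/bee had 1880 CPM and 2 gland-poor libraries had more, 2144 and 2263 CPM; its difference was 1.44 ± 0.31 (SE).

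Mrjp8 and Mrjp9, the members also reported from the venom gland, were scarce and overlapped. Mrjp8 differed by 0.29 ± 0.26 (SE) at a mean of 13.2 CPM over all libraries. Mrjp9 differed by 0.85 ± 0.40 (SE) at a mean of 21.7 CPM, and by 0.21 without control replicate 2. Per length, in the deposited FPKM, Mrjp6 (6255 ± 3540, SD over 15 libraries), Mrjp2 (5823 ± 4169) and Mrjp5 (3551 ± 2175) were the most abundant of the 8, against 9.23 ± 2.33 for Mrjp8 and 11.0 ± 5.10 for Mrjp9.

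Mrjp1 to Mrjp9 lie together on chromosome 11 from 2268450 to 2325880 (assembly Amel_HAv3.1), a stretch of 57.4 kb that holds 3 other genes. The genes are tandem copies of similar sequence, so the split of reads between them is uncertain, and a part of the counts of 1 member may belong to another.

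**Figure D2:**
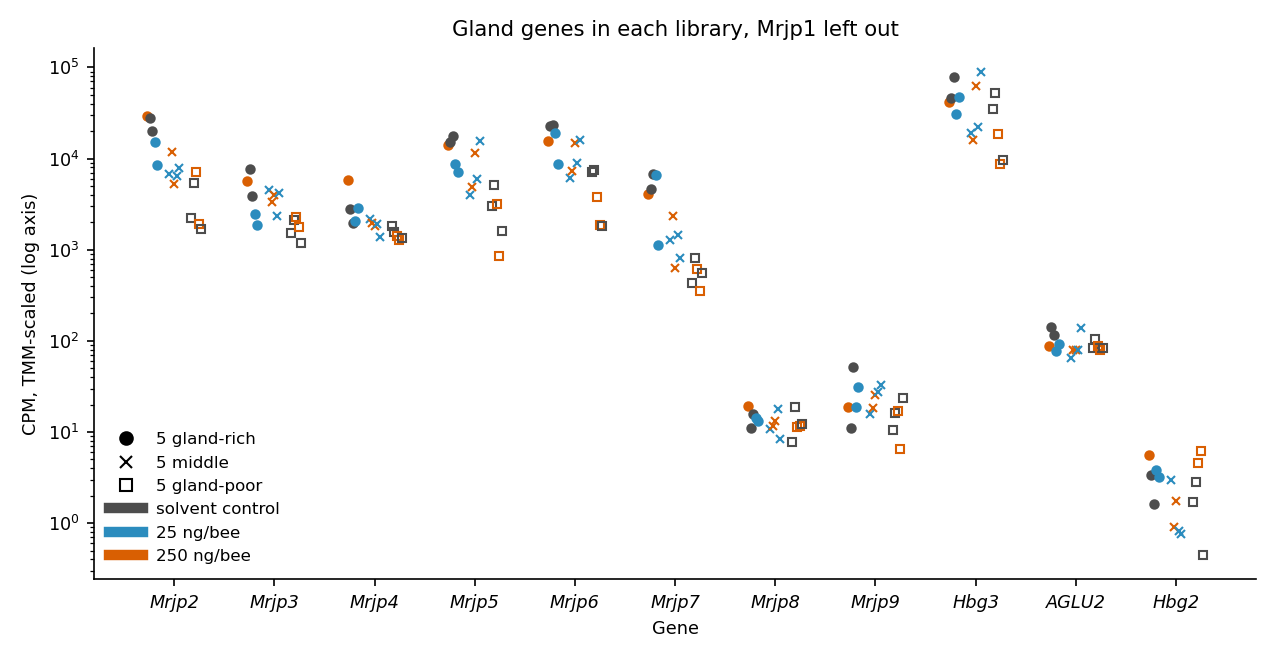
TMM-scaled CPM (log axis) of the 11 gland genes beside Mrjp1 in each of the 15 libraries, with gland-rich libraries as filled circles, middle libraries as crosses and gland-poor libraries as open squares, coloured by dose group. Circles and squares do not overlap for Mrjp2, Mrjp4, Mrjp5, Mrjp6 and Mrjp7 and overlap for the other 6.

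The 3 listed alpha-glucosidase genes overlapped between the sets, as did Mrjp3, Mrjp8 and Mrjp9. They do not stand for other enzymes of the forager gland. The loci without a symbol below were given no roles here, so gland enzymes may be among them. Of the 3 carbohydrase genes, 0 were higher and 0 were lower, beside 0.565% and 0.303% of all genes, so nothing is read from the count. Their median was 0.26, which turned to -0.18 on column sums. Hbg3, which codes for a sugar-splitting alpha-glucosidase made in the gland and was the most abundant of them (18736 ± 10796 FPKM, SD over 15 libraries), read 42211 CPM in replicate 1 at 250 ng/bee. It read 45774 and 77506 CPM in control replicates 3 and 2, and 31063 and 47749 CPM in replicates 1 and 4 at 25 ng/bee. Gland-poor values were 35307, 52915 and 9641 CPM in control replicates 5, 4 and 1, and 18734 and 8812 CPM in replicates 2 and 4 at 250 ng/bee.

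Control replicate 4, gland-poor by Mrjp1, thus held more Hbg3 than 4 of the 5 gland-rich libraries. The highest value of all, 88373 CPM, was in a middle library, replicate 3 at 25 ng/bee, and the Hbg3 difference was 1.19 ± 0.58 (SE). AGLU2, named as an alpha-glucosidase, differed by 0.26 ± 0.19 (SE), with 77.6 to 143 CPM against 79.8 to 105 CPM. Hbg2, the gene of a further alpha-glucosidase, was scarce, at a mean of 2.70 CPM over all libraries and a difference of 0.20 ± 0.50 (SE). On column sums AGLU2 was at -0.18 and Hbg2 at -0.27.

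Several loci without a symbol had gland-rich and gland-poor sets that did not overlap, which is how they were chosen. The order over all 15 libraries was not kept. LOC406081, for example, was highest in a middle library, replicate 3 at 250 ng/bee, at 51048 CPM. LOC410149, on chromosome 12, had the smallest error relative to its difference among the 12 genes furthest apart, 1.88 ± 0.20 (SE). It read 1862 CPM in replicate 1 at 250 ng/bee, 1860 and 1701 CPM in control replicates 3 and 2, and 905 and 1134 CPM in replicates 1 and 4 at 25 ng/bee. Its gland-poor values were 615, 576 and 434 CPM in control replicates 5, 4 and 1, and 339 and 317 CPM in replicates 2 and 4 at 250 ng/bee. The highest gland-poor value, 615 CPM, lay well below the lowest gland-rich value, 905 CPM.

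LOC406093, on chromosome 6, was the most abundant of these loci per length (189324 ± 71727 FPKM, SD over 15 libraries). It differed by 1.34 ± 0.44 (SE), with 66885 to 127931 CPM in the gland-rich and 17894 to 65354 CPM in the gland-poor libraries. Like Hbg3, it was high in replicates 3 at 250 ng/bee and 3 at 25 ng/bee of the middle set, at 111711 and 120103 CPM.

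LOC406081, on chromosome 5, had 25832 to 47250 CPM against 5839 to 22614 CPM, a difference of 1.51 ± 0.42 (SE). LOC406114, on chromosome 13, had 4152 to 10649 CPM against 227 to 4054 CPM (2.00 ± 0.71, SE), and its sets almost touched. LOC113218518, on chromosome 15, had 5957 to 12567 CPM against 979 to 4563 CPM (1.94 ± 0.38, SE). In these abundant loci the gap between the sets was small beside the range within each set.

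Among scarcer loci, LOC100577888 had the largest difference of all genes with a mean of at least 10 CPM, 4.97 ± 0.85 (SE). It read 22.7, 55.8, 25.9, 4.95 and 4.48 CPM from the first to the last gland-rich library, while 3 gland-poor libraries were at 0 and the others at 2.03 and 2.17 CPM. LOC411223 had 72.5 to 210 CPM against 3.66 to 57.6 CPM (2.72 ± 0.58, SE). LOC726134, which lies 4430 bases from LOC411223 on chromosome 7, had 27.6 to 76.3 CPM against 6.78 to 24.3 CPM (1.85 ± 0.54, SE).

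Among lower genes with a mean of at least 10 CPM, the 8 furthest apart were all loci without a symbol. LOC552048 was at -0.88 ± 0.23 (SE), with 27.3 to 45.9 CPM in the gland-rich and 52.9 to 94.9 CPM in the gland-poor libraries. LOC725173 and LOC724206 followed at -0.73 ± 0.19 and -0.72 ± 0.21 (SE). The other 5 (LOC412177, LOC100576271, LOC408661, LOC726547 and LOC409818) lay between -0.58 and -0.45.

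**Figure D3:**
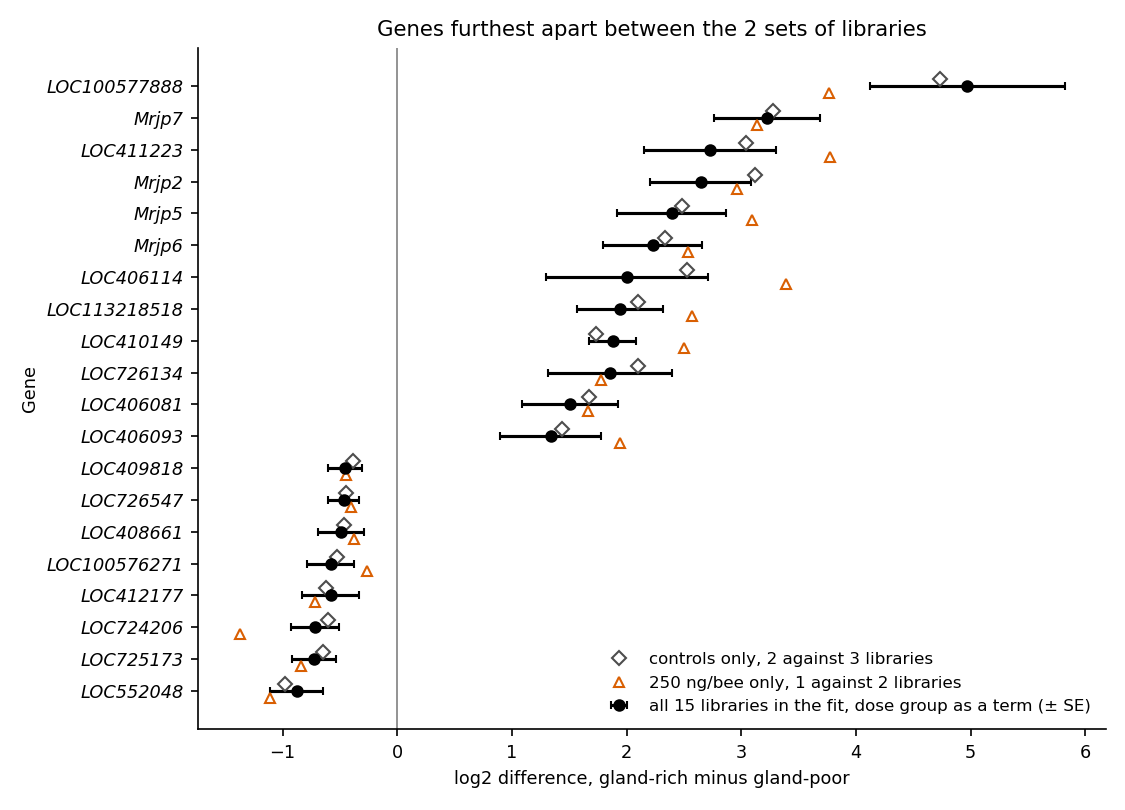
Log2 difference, gland-rich minus gland-poor (horizontal axis), of the 12 highest and 8 lowest genes with a mean of at least 10 CPM and sets that do not overlap. Filled points with bars are the fit with dose group (± SE), diamonds the controls alone (2 against 3 libraries) and triangles 250 ng/bee alone (1 against 2 libraries); all 3 values of each gene lie on the same side of 0, which the choice of non-overlapping genes fixes.

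The order of the libraries was tied to the dose groups only in part, and the controls alone give a view at 1 dose. With 2 gland-rich and 3 gland-poor controls, 13.2% of genes were higher and 11.2% lower by the same rule, so a gene that separates the controls is common. Mrjp7 differed by 3.27 and Mrjp2 by 3.12 within the controls, and by 3.14 and 2.96 within 250 ng/bee. The values within 250 ng/bee set 1 gland-rich library against 2, and that library is replicate 1, which stood apart. Hbg3 overlapped within the controls, at a difference of 1.18.

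When instead the highest 2 and lowest 2 libraries of each dose group were set against each other, so that every dose weighed the same, 7 genes were higher and 1 was lower. These were Mrjp2 (1.95 ± 0.47, SE), Mrjp4 (0.95 ± 0.25), LOC725426 (0.86 ± 0.16), LOC100577107, LOC725305, LOC410486 and LOC727378 on the higher side and LOC100576657 on the lower side, named after their values were seen. The median of the royal jelly list was then 1.12. Of the 54 higher genes, 4 remained higher in this ordering, and 1 of the 29 lower genes remained lower. More libraries stand on each side here than in the main rule, so full separation is harder to reach. The smaller counts are therefore not read as an effect of balancing the doses. Libraries of different doses also had to separate, so this is no comparison within a dose.

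Brain genes lay about where all tested genes lay. The lists for neurons, Kenyon cells, glia, synapses, transmitter receptors, nicotinic receptor subunits and neuropeptides held 54 tested genes. Of these, 0 were higher (0.565% of all genes) and 1 was lower (0.303% of all genes). The differences were positive in 27 and negative in 27, with a median of 0.00, and 49 of the 54 (90.7%) lay within 0.5 of 0, beside 91.2% of all tested genes. These shares are near the background, and TMM scaling sets the median over all genes near 0, so they show nothing particular to brain genes. On column sums the median was -0.46, close to the -0.45 of all genes.

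The single brain gene whose sets did not overlap was Mblk-1, a transcription factor described in the large Kenyon cells. It read 1104 CPM in replicate 1 at 250 ng/bee, 1209 and 967 CPM in control replicates 3 and 2, and 1167 and 1160 CPM in replicates 1 and 4 at 25 ng/bee. Gland-poor values were 1396, 1225 and 1263 CPM in control replicates 5, 4 and 1, and 1586 and 1212 CPM in replicates 2 and 4 at 250 ng/bee. The gap between 1209 and 1212 CPM was narrow, and the difference was -0.31 ± 0.15 (SE).

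The other 9 tested Kenyon cell genes overlapped, with a median of -0.01 for the list. Camkii, a kinase of memory formation, was at -0.02 ± 0.13 (SE) and Pkc, protein kinase C, at -0.08 ± 0.16. Of 8 neuronal genes, 7 were negative, with a median of -0.14. Among them Para, the voltage-gated sodium channel, was at -0.11 ± 0.12 (SE), Syt1, the calcium sensor of vesicle release, at -0.31 ± 0.17 and Dscam, a neuronal adhesion molecule, at -0.15 ± 0.24. Syx1A, a syntaxin of vesicle fusion, was at -0.14 ± 0.11 and the active zone gene brp at -0.13 ± 0.19.

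Both glial genes overlapped, with GlnS, glutamine synthetase, at 0.44 ± 0.23 (SE), or 0.17 without replicate 1 at 250 ng/bee, and the transporter gene Eaat-2 at 0.06 ± 0.17. Among 17 transmitter receptors the median was 0.08. Grd, named for a chloride channel subunit of the GABA receptor family in Drosophila, had the largest difference of that list, 0.72 ± 0.16 (SE). It read 67.4 to 110 CPM in the gland-rich and 52.8 to 70.0 CPM in the gland-poor libraries, so that the sets overlapped through 1 gland-rich library, replicate 1 at 25 ng/bee. GluCl, a glutamate-gated chloride channel, was at -0.17 ± 0.15 and Nmdar1, an NMDA receptor subunit, at -0.02 ± 0.13.

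The 10 nicotinic receptor subunits, the targets of thiacloprid, had a median of 0.20, with 6 positive and 4 negative. The 3 most abundant were nAChRa8 at -0.15 ± 0.13 (SE), nAChRa2 at 0.02 ± 0.14 and nAChRa1 at -0.35 ± 0.18. Among 9 neuropeptide genes the median was 0.16, with Tk, the tachykinin gene, at 0.42 ± 0.19, Crz, the corazonin gene, at 0.67 ± 0.34 and Apime-ASTA, allatostatin A, at 0.16 ± 0.18. The range over all 54 brain genes was -1.22 to 0.73.

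**Figure D4:**
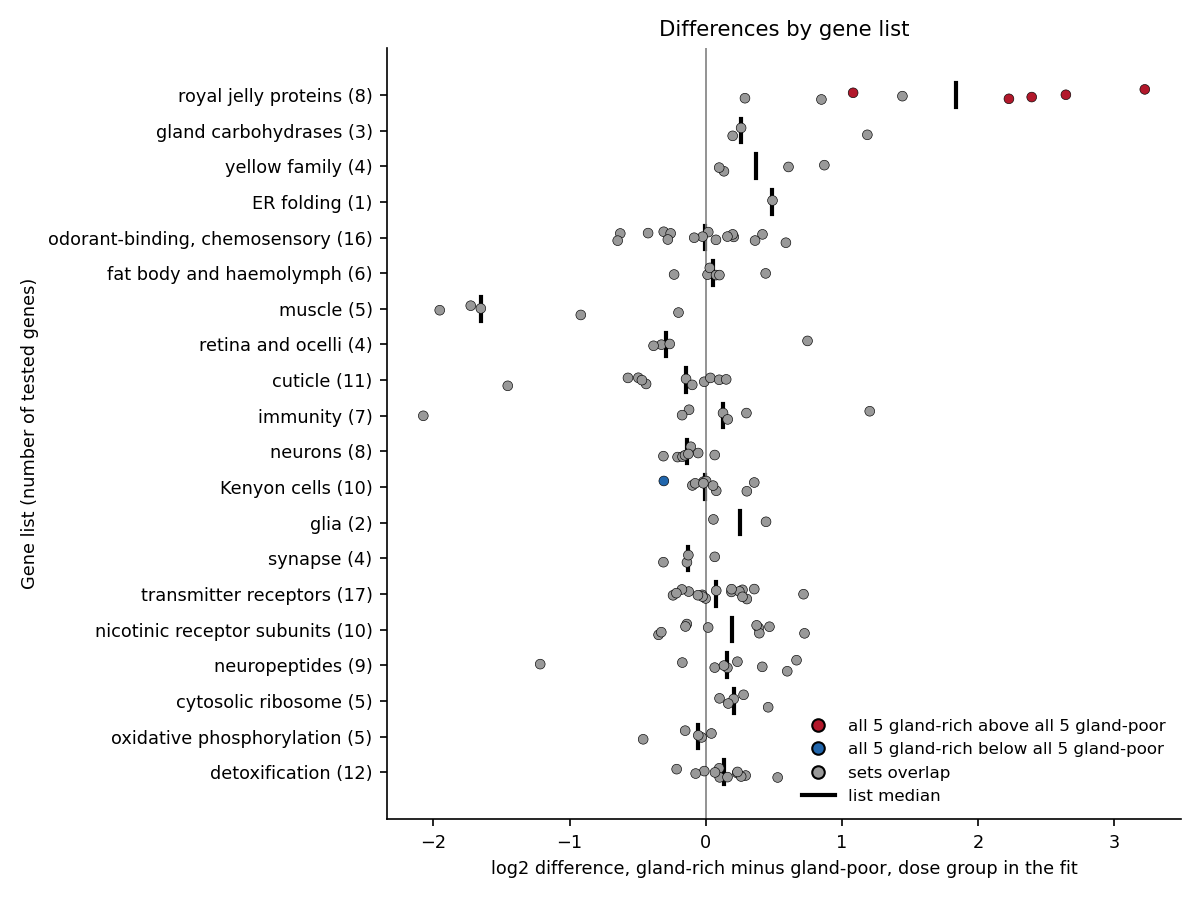
Log2 difference, gland-rich minus gland-poor with dose group in the fit (horizontal axis), of each tested gene in 20 lists (rows, with the number of tested genes), the black bar marking the list median. Red points are higher in all 5 gland-rich libraries, the blue point is lower in all 5 and grey points overlap; 5 of 8 royal jelly genes are red and the brain lists centre near 0.

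Markers of other tissues that a dissected brain can carry were also read. By the same rule 0 of their genes were higher or lower, beside 0.565% and 0.303% of all genes, which says nothing particular of these tissues. Muscle genes had the most negative median, -1.65, and all 5 tested members were negative. TpnI, troponin I, read 28.4 CPM in replicate 1 at 250 ng/bee, 23.3 and 15.3 CPM in control replicates 3 and 2, and 27.2 and 129 CPM in replicates 1 and 4 at 25 ng/bee. Its gland-poor values were 217, 27.4 and 8.998 CPM in control replicates 5, 4 and 1, and 65.1 and 257 CPM in replicates 2 and 4 at 250 ng/bee.

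Muscle content thus varied most among the gland-poor libraries, with control replicate 5 and replicate 4 at 250 ng/bee high and control replicate 1 lowest. Summed without scaling, the muscle list took 75.6 to 513 CPM in the gland-rich and 114 to 1344 CPM in the gland-poor libraries. The muscle median was -0.53 without control replicate 5. The part of muscle content in the other differences was not tested.

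Fat body and haemolymph genes had a median of 0.05, with Tsf1, transferrin, at 0.10 ± 0.16 (SE) and Vg, the yolk precursor vitellogenin, at 0.44 ± 0.64, or -0.41 without control replicate 3. Odorant-binding and chemosensory genes had a median of -0.00 over 16 genes, with CSP1 at 0.59 ± 0.19 (SE). The 4 opsin genes of the eye and ocelli had a median of -0.29, with the long-wavelength opsin Lop1 at -0.26 ± 0.31, and 11 cuticle genes had a median of -0.14. These lists overlapped between the sets in every tested member.

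Of 7 immune genes the median was 0.13. Def1, which encodes a defensin also found in royal jelly, was the most abundant and differed by 1.20 ± 0.29 (SE). It read 13354 to 29191 CPM in the gland-rich and 5387 to 14166 CPM in the gland-poor libraries, and overlapped through replicates 1 and 4 at 25 ng/bee and control replicate 4. Apid1, which encodes apidaecin, was at -2.07 ± 1.09, with 3537 CPM in control replicate 4, and at 0.03 without that library.

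The relatives of the royal jelly genes in the yellow family had a median of 0.37 over 4 genes, with Y-f at 0.13 ± 0.14 (SE). Hsc70-3, a chaperone of the endoplasmic reticulum where secreted proteins fold, was at 0.49 ± 0.18 (SE), with 352 to 710 CPM against 292 to 384 CPM, and at 0.20 without control replicate 2, which held the 710 CPM. Its sets overlapped, and it was the only tested member of its list.

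For genes of general upkeep, the 5 ribosomal genes had a median of 0.21, the 5 respiratory chain genes -0.05 and the 12 detoxification genes 0.13, with 0 higher and 0 lower in each, beside 0.565% and 0.303% of all genes. Rps14, of the small ribosomal subunit, was at 0.46 ± 0.24 (SE), or 0.06 without replicate 1 at 250 ng/bee. Within the controls it was at -0.05 and within 250 ng/bee at 1.48, where the gland-rich library is replicate 1. The cytochrome P450 gene LOC551028, for which the reference gives the synonym CYP6AS13, was at 0.26 ± 0.17.

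Relations among the gland genes other than Mrjp1 do not use the measure that ordered the libraries, so they were tested over all 15 libraries as log2(CPM + 1). All 45 pairs of 10 genes (Mrjp2 to Mrjp9, Hbg3 and AGLU2) were correlated, with two-sided permutation p-values adjusted over the 45. Both Pearson's r and Spearman's rho passed at an adjusted p of 0.05 in 13 pairs, 11 of them among the 28 pairs of royal jelly genes.

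Mrjp5 and Mrjp6, whose genes lie 2043 bases apart, moved most closely (r = 0.96, rho = 0.95, n = 15). The permutation p of each was 1e-05, the smallest that 100000 resamples can give (adjusted p = 0.00045), and r was 0.93 without the 2 libraries farthest from the median of Mrjp5. Mrjp2 and Mrjp7 had r = 0.89 and rho = 0.88 (adjusted permutation p = 0.00045 and 0.0018, n = 15), and r = 0.90 without the 2 farthest libraries. The split of reads between these similar genes is uncertain, as above.

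Hbg3, on chromosome 6 and no relative of the royal jelly genes, passed with 2 of its 9 partners. With Mrjp5 it had r = 0.86 and rho = 0.82 (adjusted permutation p = 0.00075 and 0.0051, n = 15), and with Mrjp6 r = 0.84 and rho = 0.75 (adjusted permutation p = 0.00112 and 0.0113, n = 15). Without the 2 libraries farthest from the Hbg3 median, r was 0.73 and 0.68.

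Hbg3 did not pass with Mrjp2 (r = 0.52, rho = 0.36, adjusted permutation p = 0.0950 and 0.294) or Mrjp7 (r = 0.35, rho = 0.33, adjusted permutation p = 0.286 and 0.345). The difference between these correlations was not tested. After subtraction of the dose group means, r of Hbg3 was 0.87 with Mrjp5, 0.84 with Mrjp6, 0.56 with Mrjp2 and 0.32 with Mrjp7. Without replicate 1 at 250 ng/bee, and so within the libraries of the 20190809 prefix, these were 0.87, 0.84, 0.53 and 0.33.

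**Figure D5:**
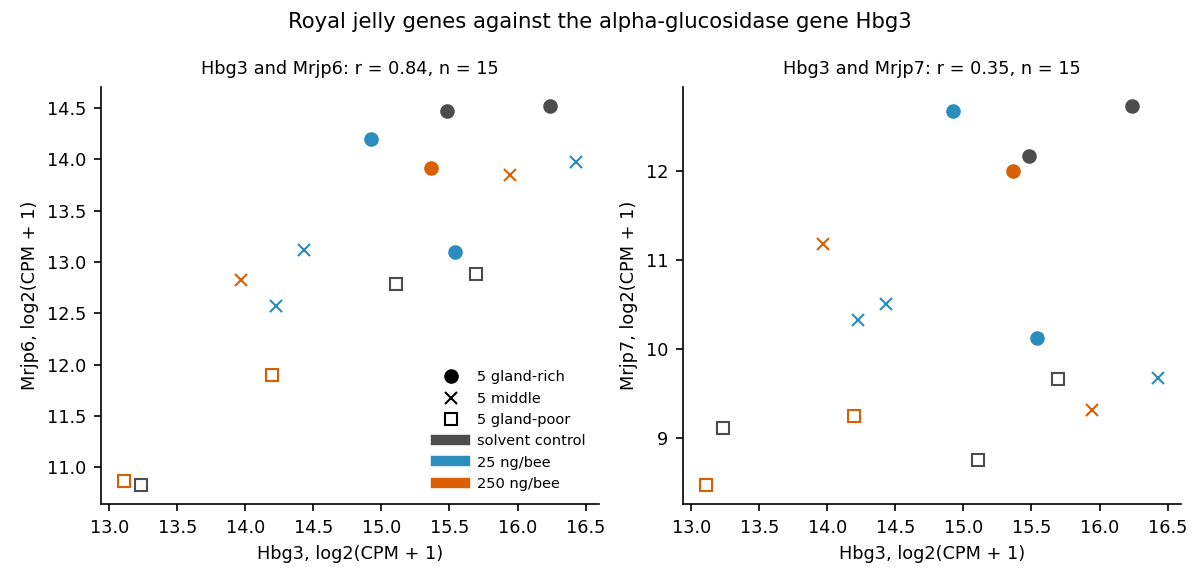
Mrjp6 (left, r = 0.84) and Mrjp7 (right, r = 0.35) against Hbg3, all as log2(CPM + 1), 1 point per library (n = 15), with symbols for the gland-rich, middle and gland-poor sets and colours for dose. Mrjp6 is high in the 2 libraries with the most Hbg3 outside the controls, while Mrjp7 is low there.

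The dose labels were not set by the measured Mrjp1 share, so gland content could be compared between doses, although the 3 groups were spread unevenly over the sets. The mean log2(CPM + 1) of the 11 gland genes was 9.31 ± 0.90 in the control, 9.46 ± 0.27 at 25 ng/bee and 9.21 ± 0.75 at 250 ng/bee (SD, n = 5 each). No pair of groups differed beyond the spread between pools (two-sided exact permutation p = 0.730 for 25 ng/bee, 0.849 for 250 ng/bee and 0.524 between doses, adjusted p = 0.849 each). The smallest p this design allows is 0.00794. None of the 11 genes passed in edgeR's quasi-likelihood test at either dose against the control or between doses (0 of 9559 genes called in each, 0%). Their adjusted p was 0.441 or more, 0 of the 11 had an unadjusted p under 0.05, and Hbg2 at 250 ng/bee had the largest difference, 0.95.

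The dose comparisons were also fitted with a term for the Mrjp1 level. With it, edgeR called 0 of 9559 genes (0%) for 25 ng/bee against the control, 250 ng/bee against the control and 250 against 25 ng/bee, with 373, 1160 and 541 genes at an unadjusted p under 0.05. Without it the edgeR calls were also 0 each, with 235, 1143 and 477, and counts of 0 in both fits show no stability. DESeq2 with the Mrjp1 level called 53 genes at 250 ng/bee (38 higher, 15 lower) and 0 in the other comparisons. Without replicate 1 at 250 ng/bee, edgeR called 61 genes at 250 ng/bee (54 rose, 7 fell) with the Mrjp1 level in the fit and 248 (212 rose, 36 fell) without it, so for this set of 14 libraries the count depended on the term. Without replicate 3 at 250 ng/bee the counts were 3 and 2.

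Whether a gene's relation with the Mrjp1 level differed between doses was tested as an interaction. EdgeR called 0 of 9559 genes (0%), 1226 had an unadjusted p under 0.05, and DESeq2 called 323. The edgeR count was 470 without replicate 4 at 250 ng/bee, the library with the lowest Mrjp1 share of its group, 40 without replicate 5, and 1 each without replicate 2 at 250 ng/bee and without control replicate 1.

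The 5 middle libraries were not used by the contrast, but their Mrjp1 share ran only from 5.41% to 6.21%, a 1.15-fold range. The slope on the Mrjp1 level passed in edgeR for 0 of 9559 genes (0%). An unadjusted p under 0.05 was found for 1053, and DESeq2 called 53. Of the 54 higher genes, 16 had a positive slope there, and of the 29 lower genes, 24 did, beside 49.3% of all tested genes. No direction is read from these signs, given the narrow range and the use of Mrjp1 as the measure.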

How the data were processed

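Gene names were matched to the reference table of assembly Amel_HAv3.1 (12112 of 12112). The authors deposited estimated counts for 12112 genes in 15 libraries, which were used as the whole numbers deposited; in every library 100% of the genes lay within 1 count of summed transcript coverage times length over 75. The authors also deposited, per the file headers, FPKM and coverage per transcript, both as a signal used here for levels per length and for the check of counts. Tools listed without roles in the submitters' processing notes are StringTie 2.0.2, SAMtools 1.7, HISAT2 2.1.0, DESeq2 1.22.2 and Trimmomatic 0.39. Neither the build nor whether counting used strand is stated in the sources used here.

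Genes passing edgeR's low-count filter (9559 beside Mrjp1, 99.96% of counts) were fitted with TMM scaling in edgeR 4.0.16 (R 4.3.3) with terms for the library set and the dose group, all 15 libraries together (common biological coefficient of variation 0.219). Dose, interaction and middle-library slopes used its quasi-likelihood F test, two-sided, with Benjamini-Hochberg adjustment and a threshold of 0.05; DESeq2 1.42.0 was an alternative. Score and correlation tests permuted libraries in SciPy 1.17.1, with a pseudocount of 1 CPM. No library repeated another (smallest chi-square per degree of freedom 17.5). The edgeR fits of the library set, the interaction and the middle slope were tried on simulated data. So was the fit of the higher dose with the Mrjp1 level. The DESeq2 fits, the dose fits without the Mrjp1 level and the fits leaving out a library were not.

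Libraries, gene lists and tests were chosen with earlier results of these data known. Text names all gland list members, the 3 most abundant members of other lists, and, among genes with a mean of at least 10 CPM and sets that do not overlap, the 12 highest and 8 lowest, except 1 gene that is not reported here. Replicates were separate pools per the labels. Column sums, the order by Mrjp2 to Mrjp9 and the values within a dose group were alternatives chosen after seeing the data.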

Additional observations from a re-analysis of the deposited data

Results flagged for a closer look

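In each dose group of 5, the highest or lowest library of every named gene was compared with the nearest other library. Of 231 such groups, 24 held a library whose gap took more than 0.71 of the group's range. This is the critical value of Dixon's test, which chance reaches in about 1 group in 20 for values not chosen from the same data. The rate of 1 in 20 does not hold for genes named because their gland-rich and gland-poor sets did not overlap. Replicate 1 at 250 ng/bee accounted for 7 of them: LOC410149 (1862 CPM), LOC411223 (164), Mrjp4 (5753), Mrjp8 (19.5), Obp10 (361), Rps14 (1456) and Sod1 (657). It was the only gland-rich library of its dose. LOC410149, LOC411223 and Mrjp4 were counted as higher, so their high values in that library follow in part from the order by Mrjp1. At 25 ng/bee, replicate 1 stood alone in Mrjp2 (15051 CPM), Mrjp7 (6521) and Lop1 (8442), replicate 3 in Apid1 (430) and replicate 5 in LOC724206 (57.3) and LOC725173 (17.1). Replicate 1 also had the highest Mrjp1 share at 25 ng/bee, and Mrjp2 and Mrjp7 were counted as higher. Control replicate 5 stood apart in LOC408661 (166 CPM), Para (350.2), Syx1A (573) and the troponin genes TpnCI (198), TpnCIIIa (207) and TpnI (217), and replicate 4 at 250 ng/bee in TpnCI (411). The others were control replicate 1 in Apd-1 (245 CPM), control replicate 4 in Apid1 (3537) and control replicate 2 in Hsc70-3 (710) and nAChRa8 (60.8).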

How the results depend on the processing

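The genes counted as higher and lower numbered 263 and 225 with the 4 highest against the 4 lowest libraries, 7 and 1 with the highest 2 and lowest 2 of each dose group, 12 and 1118 on column sums, and 121 and 88 with libraries ordered by Mrjp2 to Mrjp9. Within the 20190809 prefix, 79 genes were higher and 53 lower. Leaving out 1 library gave 54 to 142 higher and 29 to 143 lower, since fewer libraries separate more easily. The ordering within dose groups sets more libraries on each side, which separate less easily. List medians were held against the SD of the list's mean log2 level among the gland-poor libraries. That SD is not an error of the median. The royal jelly median (1.12, highest 2 and lowest 2 of each dose) moved by more than its SD. So did the brain median (0.11 with 4 against 4, -0.46 on column sums). The carbohydrase median changed sign on column sums (-0.18). Without 1 library the royal jelly median ranged from 1.67 to 1.99 and the brain median from -0.03 to 0.06. The carbohydrases then ranged from 0.12 to 0.43 and muscle from -2.10 to -0.53. DESeq2 called 53 genes for 250 ng/bee with the Mrjp1 level, 323 for the interaction and 53 for the middle slope; leaving out 1 library gave edgeR counts of 0 to 61 and 0 to 470 for the first 2. The gland score changed sign without control replicate 1 (-0.12) or 5 (-0.01) for 25 ng/bee, without control replicate 2 (0.14), control replicate 3 (0.11) or replicate 4 at 250 ng/bee (0.16) for 250 ng/bee, and without replicate 4 (0.0050) between doses, ranging from -0.12 to 0.39, -0.37 to 0.16 and -0.51 to 0.0050. Same-numbered libraries deviated together from their group means in some pairs but not all (correlations -0.08 to 0.33, 6 of 15 pairs over 0.1). The number was therefore not taken as a pairing. With the replicate block the royal jelly median was 1.62, the muscle median -1.05 and the dose calls 0. The higher and lower calls compare levels without the fit, so the block could not change them. Of 2156 alternative values of named genes, 2087 moved by less than a margin wider than their SE (the SE times the square root of 5/2). The other 69 moved further and 0 changed sign after being called. The causes were not tested. Depth limits scarce genes such as Hbg2.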
